A study of Homo sapiens with 6 samples.

Results

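The DUSP family MAP kinase phosphatases are 10 genes, DUSP1, DUSP2, DUSP4, DUSP5, DUSP6, DUSP7, DUSP8, DUSP9, DUSP10 and DUSP16, out of 58825 genes in the deposited table. They were taken by gene name, and the family was selected on a measured difference: the levels of its members in SIGLEC15 siRNA and control siRNA libraries were known when it was picked. That contrast is therefore described for the 10 genes and carries no test of its own. In 143B cells 3 of them, DUSP1, DUSP5 and DUSP6, were lower after the SIGLEC15 siRNA, and the summed level of the family in FPKM (reads scaled to transcript length and library size) was 155.6 FPKM ± 3.88 with the control siRNA and 110.1 FPKM ± 3.92 with the SIGLEC15 siRNA (SD, n = 3 each). DUSP6, DUSP5 and DUSP1 made up 38.7%, 30.5% and 13.1% of the control sum, while the median log2 fold change of the 10 was 0.188. DUSP2, DUSP4, DUSP8 and DUSP16 had higher values in every SIGLEC15 siRNA library than in any control library. Of these, only DUSP8 passed the edgeR test over all genes (adjusted p = 0.0421), and leaving out any one library ended that call. This p-value belongs to the fit over all genes and is no test of the selected family. Groups did not overlap for 7 of the 10 members and for 26.6% of all tested genes.

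The cells are 143B, a human osteosarcoma line derived from HOS cells by transformation with the Ki-ras oncogene, grown in medium with 10% serum. All libraries come from cells that had received 80 nmol/L of an siRNA for 36 h, either a negative control siRNA (3 libraries) or an siRNA against SIGLEC15, a sialic acid-binding receptor (3 libraries). Poly(A) RNA of each was sequenced in paired ends, to between 57966691 and 67655254 gene counts per library. Nothing in the labels states that replicates are separate cultures, and the spread behind each SD and p-value may thus be technical.

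MAP kinase phosphatases remove phosphate from both the threonine and the tyrosine of the activation loop of MAP kinases and so switch them off. Many are themselves induced by the kinases they act on, which makes them negative feedback regulators and common readouts of pathway output. DUSP1, DUSP2, DUSP4 and DUSP5 are inducible and nuclear. DUSP6, DUSP7 and DUSP9 are mainly cytoplasmic and prefer ERK, the kinase downstream of RAS, RAF and MEK. DUSP8, DUSP10 and DUSP16 act mainly on the stress kinases JNK and p38.

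The promoters of 8 of the 10 members had an entry in the RefSeq promoter table (GRCh38.p14); DUSP4 and DUSP5 were not matched. The 250 bases before the start are shown for DUSP1, DUSP6 and DUSP8, the members past the threshold described below that were matched. They lie at chr5:172771196-172771445, chr12:89352502-89352751 and chr11:1572272-1572521, all on the minus strand. Capitals mark matches, on either strand, of the cyclic AMP response element (TGACGTCA, and its short form TGACG, which overlaps it), the E-box CACGTG, the TATA box TATAAA, the AP-1 site TGANTCA, the ETS site CCGGAAG and the CArG box bound by SRF.
DUSP1: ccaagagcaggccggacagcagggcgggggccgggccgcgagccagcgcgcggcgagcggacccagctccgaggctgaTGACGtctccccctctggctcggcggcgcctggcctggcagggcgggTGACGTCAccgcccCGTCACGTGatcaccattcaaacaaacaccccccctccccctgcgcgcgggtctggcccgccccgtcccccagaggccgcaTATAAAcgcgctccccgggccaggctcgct
DUSP6: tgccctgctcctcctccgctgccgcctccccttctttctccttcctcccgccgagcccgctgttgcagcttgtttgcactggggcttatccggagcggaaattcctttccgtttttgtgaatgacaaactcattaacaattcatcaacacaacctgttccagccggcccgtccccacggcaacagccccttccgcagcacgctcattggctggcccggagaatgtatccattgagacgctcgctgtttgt
DUSP8: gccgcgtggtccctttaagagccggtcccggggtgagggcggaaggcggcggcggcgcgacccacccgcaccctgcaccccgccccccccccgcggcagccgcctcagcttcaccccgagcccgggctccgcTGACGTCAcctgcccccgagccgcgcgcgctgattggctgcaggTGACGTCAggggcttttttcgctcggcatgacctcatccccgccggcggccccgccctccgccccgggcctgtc

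The full cyclic AMP response element, bound by CREB and ATF factors, was found in 2 of the 8 matched members, counted by gene (10 windows, since DUSP9 and DUSP10 have 2 each). It was found in 1.6% of all 35116 windows of the table and in 2.3% of the 16795 windows of tested genes, and the shares below are given in the same order. DUSP1 held 1 copy, at bases -125 to -118 counted from the base before the start, with a further short copy on either side of it, at -172 to -168 and -111 to -107, an E-box at -108 to -103 that overlaps the nearer one, and a TATA box at -30 to -25. DUSP8 held 2 full copies, at -118 to -111 and -74 to -67. The 2 members that carry it lay on opposite sides of 0 in the siRNA comparison, DUSP1 lower and DUSP8 higher. Whether the element has a part in either difference was not tested. The E-box was found in DUSP1 and DUSP2 (6.3% and 8.1% of windows) and the TATA box in DUSP1 (10.7% and 6.3%). The DUSP6 window held none of the 8 motifs searched. No matched member held the AP-1 site (6.6% and 4.8%), the ETS site (8.5% and 12.9%) or the CArG box (1.2% and 1.1%), and 7 of 8 held the GC box GGGCGG (42.6% and 61.7%). The short element, counted with or without the full one, was found in 21.2% and 26.8%.

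The 3' UTRs were searched on the transcript strand for the AU-rich nonamer TTATTTATT, a core of elements that mark short-lived mRNAs. The sites are shown for DUSP1 and DUSP8 with 10 bases on either side and the nonamer in capitals.
DUSP1, first site: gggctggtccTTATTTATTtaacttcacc
DUSP1, second site: agaatataccTTATTTATTtttgtgtagg
DUSP8: tttcgattttTTATTTATTtaagctgttc
DUSP1 held 2 copies in a 3' UTR of 672 bases. Of 1603 tested genes with a 3' UTR of like length (0.8 to 1.25 times) 4.8% held any copy. DUSP4 and DUSP8 held 1 copy each, against 18.1% and 12.6% of genes of like length. DUSP5 and DUSP6 held none. The pentamer ATTTA, the minimal AU-rich unit, occurred 4 times in DUSP1, 1 time in DUSP6 and 0 times in DUSP5, and 62.4%, 90.3% and 78.3% of genes of like length held it. Among the other members it occurred 6 times in DUSP4, 5 times in DUSP16, 4 times in DUSP8, 3 times in DUSP2 and DUSP10, 1 time in DUSP9 and 0 times in DUSP7, in 3' UTRs of differing length.

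SIGLEC15, the targeted gene (ENSG00000197046), was read at very low depth, with 12, 10 and 22 counts in the control libraries against 12, 8 and 6 counts in the SIGLEC15 siRNA libraries (replicates 1, 2 and 3 of each). The groups overlapped, and the log2 fold change of -0.82 (SE 0.598) did not pass the edgeR test (adjusted p = 0.529). Lower SIGLEC15 mRNA was thus not shown in the libraries labelled as knockdown. Of 7 markers of mesenchymal and osteoblast cells, VIM (481.8 FPKM in the control group) and SPARC (62.6 FPKM) were abundant, while RUNX2 stood at 0.327 FPKM and ALPL and COL1A2 were at or near 0. SPARC and COL1A1, both bone matrix genes, rose 1.75-fold and 1.61-fold (edgeR adjusted p = 0.00137 and 0.0134). VIM and TWIST1, a mesenchymal transcription factor, had lower values in every SIGLEC15 siRNA library than in any control library, with log2 fold changes of -0.14 and -0.36 that did not pass (adjusted p = 0.247 and 0.157). The leukocyte genes PTPRC, CD3E and LYZ had 0 counts. Their summed level with CD14 and CD68, nearly all of it CD68, was 41.93 to 56.44 CPM (counts scaled to equal library size) in control and 28.03 to 47.98 CPM in SIGLEC15 siRNA libraries. The epithelial genes KRT18, KRT8 and EPCAM were expressed (CDH1 at 0), with a summed level of 887.8 to 1066 CPM and 925.3 to 1019 CPM in the same order. Endothelial genes summed to 0.178 to 0.441 CPM and 0.313 to 0.425 CPM, with CDH5 at 0. The part of any of these in the results was not tested.

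Across all 18910 genes that passed the filter on low counts, 4.65% were called changed at an edgeR adjusted p under 0.05, 2.43% as lower and 2.22% as higher. All 10 phosphatase genes passed the filter and 4 were called, 3 of them lower and 1 higher. Groups were fully apart, with no overlap between their libraries, for 7 of the 10 (3 lower, 4 higher) and for 26.6% of all tested genes. Because the family was selected on this contrast, nothing is read from these shares. The median log2 fold change of the 10 was 0.188, with 6 above 0 and 4 below, and that of all tested genes was -0.0064.

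**Figure D1:**
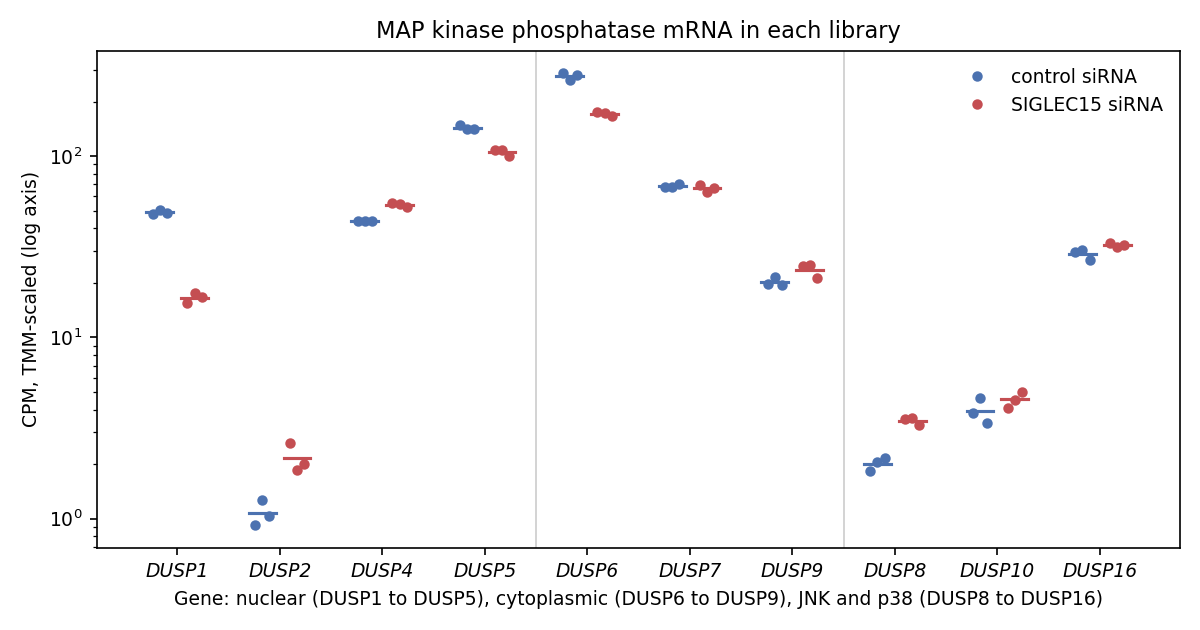
Level of each MAP kinase phosphatase gene in CPM scaled by TMM (log axis) in the 3 control siRNA (blue) and 3 SIGLEC15 siRNA (red) libraries; points are libraries and lines are group means. DUSP1, DUSP5 and DUSP6 sit lower in every SIGLEC15 siRNA library, DUSP2, DUSP4, DUSP8 and DUSP16 higher, and DUSP7, DUSP9 and DUSP10 overlap.

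Among the nuclear phosphatases, DUSP1 (ENSG00000120129, chromosome 5, 172768096 to 172771195, minus strand), an immediate early gene whose product acts on p38, JNK and ERK, showed the largest difference of the family. It stood at 48.13, 50.46 and 48.34 CPM in control replicates 1, 2 and 3 and at 15.45, 17.54 and 16.73 CPM in SIGLEC15 siRNA replicates 1, 2 and 3. The groups were far apart: the highest SIGLEC15 siRNA value lay well under the lowest control value. The log2 fold change was -1.56 (SE 0.0865), 2.955-fold lower. In bulk RNA a lower level in every cell and fewer cells with the transcript cannot be told apart. The antisense gene AC022217 covers the whole DUSP1 model but had 0 to 8 counts per library.

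DUSP5 (ENSG00000138166, chromosome 10, 110497907 to 110511533, plus strand), which binds and dephosphorylates ERK in the nucleus, had 147.8, 140.6 and 140.8 CPM in the control libraries. In the SIGLEC15 siRNA libraries it had 108.6, 107.7 and 100.4 CPM. The groups did not overlap, and the log2 fold change was -0.44 (SE 0.062), 1.36-fold lower. Its call ended without any one of control replicates 1, 2 and 3 or SIGLEC15 siRNA replicate 2 (log2 fold changes -0.41, -0.45, -0.45 and -0.45). The pseudogene DUSP5P1, a copy of DUSP5 elsewhere in the genome, had 22, 23 and 25 counts in control and 18, 7 and 19 counts in SIGLEC15 siRNA libraries against 6345 to 9153 counts of DUSP5 per library.

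DUSP4 (ENSG00000120875), a nuclear phosphatase that ERK induces and that acts on ERK and JNK, went the other way. It had 43.8, 43.77 and 44.07 CPM in control and 55.14, 54.12 and 52.51 CPM in SIGLEC15 siRNA libraries. The control spread was 0.375% of the mean, a value that rests on 3 libraries. The groups did not overlap, but the log2 fold change of 0.30 (SE 0.0649) was not called. DUSP2 (ENSG00000158050), best known from activated immune cells, was read at 57, 75 and 63 counts in control and 172, 110 and 135 counts in SIGLEC15 siRNA libraries. Every SIGLEC15 siRNA value was above every control value, with a log2 fold change of 1.01 (SE 0.232) that was not called. DUSP2 and DUSP4 thus stood opposite to DUSP1 and DUSP5 within the nuclear group.

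DUSP6 (ENSG00000139318, chromosome 12, 89347235 to 89352501, minus strand), the cytoplasmic phosphatase most selective for ERK and a standard marker of ERK pathway output, was the most abundant member. It had 286.3, 264.4 and 279.4 CPM in control replicates 1, 2 and 3 and 174.6, 172.8 and 165.7 CPM in SIGLEC15 siRNA replicates 1, 2 and 3. The groups did not overlap, and the log2 fold change was -0.69 (SE 0.0591), 1.62-fold lower. The antisense gene AC024909 (ENSG00000274021) overlaps the 5' end of DUSP6 by 1487 bases and had 8.36 CPM ± 1.12 in control and 5.83 CPM ± 1.46 in SIGLEC15 siRNA libraries (SD, n = 3 each). It is far less abundant than DUSP6, and whether strand was used in counting is not given in the sources used here, so reads of the pair cannot be told apart.

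DUSP7 (ENSG00000164086), the closest relative of DUSP6, had 67.78, 67.71 and 70.32 CPM in control and 69.52, 63.52 and 66.86 CPM in SIGLEC15 siRNA libraries, which overlapped (log2 fold change -0.04, SE 0.066). DUSP9 (ENSG00000130829), known from placenta and early embryo, had 19.71, 21.43 and 19.45 CPM in control and 24.74, 24.96 and 21.25 CPM in SIGLEC15 siRNA libraries. Control replicate 2 was above SIGLEC15 siRNA replicate 3, and the log2 fold change of 0.23 (SE 0.105) was not called.

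Of the phosphatases of JNK and p38, DUSP8 (ENSG00000184545, chromosome 11, 1554051 to 1572271, minus strand) was the one that was called. Its counts were 114, 121 and 132 in the control libraries and 233, 212 and 220 in the SIGLEC15 siRNA libraries, or 2.02 CPM ± 0.161 against 3.47 CPM ± 0.167 (SD, n = 3 each). The groups did not overlap, and the log2 fold change was 0.78 (SE 0.156), 1.72-fold higher. Leaving out any one of the 6 libraries ended the call, with log2 fold changes between 0.72 and 0.83. Its processed pseudogene DUSP8P5 had 41, 57 and 13 counts in control and 25, 36 and 71 counts in SIGLEC15 siRNA libraries, so the value of DUSP8 is uncertain where reads fit both.

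DUSP16 (ENSG00000111266), which shuttles between nucleus and cytoplasm, had 29.43, 30.38 and 26.62 CPM in control and 33.2, 31.63 and 32.46 CPM in SIGLEC15 siRNA libraries. The groups did not overlap, and the log2 fold change of 0.17 (SE 0.0871) was not called. DUSP10 (ENSG00000143507) had 238, 274 and 206 counts in control and 271, 267 and 337 counts in SIGLEC15 siRNA libraries. These overlapped in CPM, with a log2 fold change of 0.21 (SE 0.175).

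**Figure D2:**
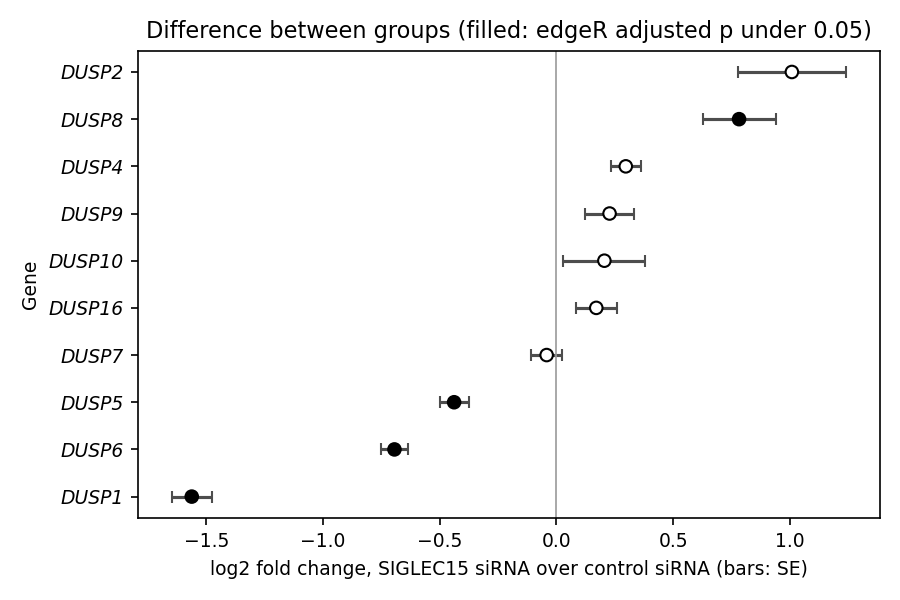
Log2 fold change of each gene, SIGLEC15 siRNA over control siRNA, from edgeR, with bars of 1 SE; filled points are genes called changed. The values run from -1.56 for DUSP1 to 1.01 for DUSP2, and the SE is widest for DUSP2 (0.232).

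Levels of different genes were compared per transcript length, in the deposited FPKM. With the control siRNA the order was DUSP6 (60.23 FPKM ± 2.6), DUSP5 (47.41 ± 1.77), DUSP1 (20.43 ± 0.603), DUSP7 (10.16 ± 0.123), DUSP9 (6.13 ± 0.353), DUSP4 (5.07 ± 0.0384), DUSP16 (4.23 ± 0.325), DUSP10 (1.17 ± 0.196), DUSP2 (0.46 ± 0.0747) and DUSP8 (0.339 ± 0.0233; SD, n = 3 each). No 2 neighbours in this order overlapped between libraries. DUSP6 and DUSP5 were higher than 96.8% and 95.9% of all tested genes, and DUSP2 and DUSP8 than 25.2% and 20.9%.

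With the SIGLEC15 siRNA the upper part of the order closed up. DUSP6 (37.25 FPKM ± 1.28) and DUSP5 (35 FPKM ± 1.73) overlapped. DUSP1, at 6.92 FPKM ± 0.557, moved from the third place to the fifth, behind DUSP7 (9.87 FPKM ± 0.278) and DUSP9 (7.18 FPKM ± 0.686), and its values overlapped those of DUSP9 and of DUSP4 (6.23 FPKM ± 0.179). The lower 4 places, DUSP16, DUSP10, DUSP2 and DUSP8, kept their order. For each member the ratio of counts to FPKM, scaled to the library total, stayed within a factor of 1.02 over the 6 libraries, so both units give the same differences between groups.

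**Figure D3:**
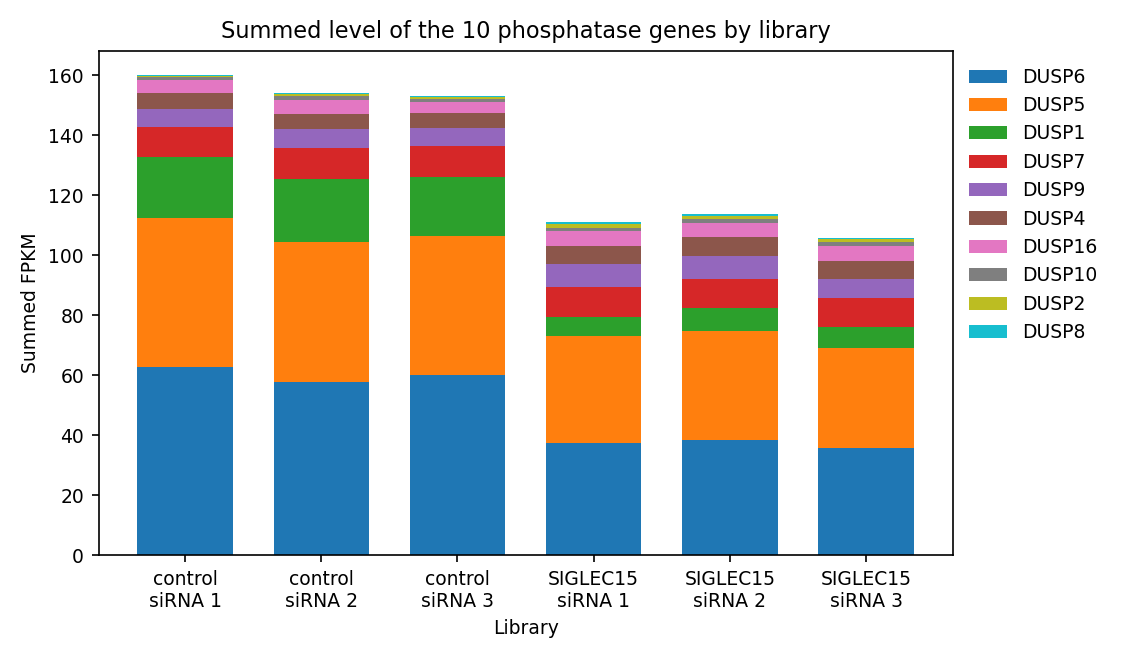
Summed FPKM of the 10 phosphatase genes in each of the 6 libraries, stacked by gene. The sums are 152.9 to 160.1 FPKM in control and 105.8 to 113.5 FPKM in SIGLEC15 siRNA libraries, and DUSP6 and DUSP5 make up most of each bar.

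DUSP1 made up 13.1% ± 0.534 of the summed FPKM with the control siRNA and 6.29% ± 0.484 with the SIGLEC15 siRNA (SD, n = 3 each). DUSP6 made up 38.7% ± 1.04 and 33.8% ± 0.0503. The share of DUSP4 was 3.26% ± 0.0584 and 5.66% ± 0.0414, and that of DUSP8, DUSP10 and DUSP16 together 3.69% ± 0.313 and 6.09% ± 0.267. DUSP5 held about the same share on both sides, 30.5% ± 0.373 and 31.8% ± 0.458, and the sign of that small difference turned on CPM (22.45% and 21.99%). On CPM, which does not scale by length, DUSP1 took 7.69% and 3.46% and DUSP4 took 6.89% and 11.2%, each in the same direction. As sums, the phosphatases of JNK and p38 stood at 5.74 FPKM ± 0.497 and 6.7 FPKM ± 0.0928, while the nuclear ones stood at 73.37 FPKM ± 1.84 and 49.09 FPKM ± 2.09 and the cytoplasmic ones at 76.52 FPKM ± 2.41 and 54.3 FPKM ± 1.91. These sums were not tested, since the members were selected on the same contrast. Members of a sum did not move together. Among the cytoplasmic ones DUSP6 stood at 60.23 FPKM in control and 37.25 FPKM in SIGLEC15 siRNA libraries. In the same order DUSP7 stood at 10.16 and 9.87 FPKM and DUSP9 at 6.13 and 7.18 FPKM. Among the nuclear ones DUSP1 and DUSP5 were lower and DUSP2 and DUSP4 higher.

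The genes most like each of DUSP1, DUSP6 and DUSP5 over the 6 libraries were found by the root-mean-square difference of centred log2(CPM + 1) values. They share the libraries and the group difference with the member. For DUSP1 they were TP53INP2 (difference 0.0432), PIAS3 (0.0481) and NIPSNAP3A (0.0954), all with log2 fold changes between -1.65 and -1.48. For DUSP6 they were CALR (0.0325), CTH (0.0342) and GLCE (0.0353), with log2 fold changes between -0.77 and -0.63. For DUSP5 they were RIPK2 (0.0232), LARP6 (0.0307) and WDR19 (0.0312), with log2 fold changes between -0.50 and -0.41.

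Of 23 atypical and other dual-specificity phosphatases 18 were tested and 0 passed the edgeR test. Their median log2 fold change was -0.037. The nearest was DUSP14, a small phosphatase, with 34.16 CPM and 27.21 CPM and a log2 fold change of -0.33 (adjusted p = 0.0796). STYXL1 had the highest level per length (14.91 FPKM in control). DUSP13, DUSP21, DUSP23, DUSP27 and DUPD1 had 0 counts in all 6 libraries.

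Of 14 MAP kinases, conventional and atypical, 13 were tested and 1 passed. MAPK6, which encodes the atypical kinase ERK3, rose 1.69-fold, with 122.5 CPM ± 5.53 in control and 207.3 CPM ± 19.8 in SIGLEC15 siRNA libraries (SD, n = 3 each; adjusted p = 0.00729) and was also the most abundant of them per length (16.15 FPKM in control). MAPK3, which encodes a conventional ERK, had a log2 fold change of -0.06, the JNK genes MAPK8 and MAPK9 -0.06 and 0.23, and the p38 gene MAPK14 0.05 (SE 0.665), with none of these past the threshold. Of 7 MAP kinase kinases 0 passed. MAP2K1, which activates ERK, was the most abundant (28.28 FPKM in control) and had a log2 fold change of 0.05. The nearest was MAP2K4, with a log2 fold change of 0.37 (edgeR adjusted p = 0.0733). Groups did not overlap for 4 of the 7, against 26.6% of all tested genes. MAP2K4, MAP2K3 (0.34) and MAP2K6 (0.65, at low counts) were higher and MAP2K5 (-0.21) was lower. Of 10 tested kinases activated by MAP kinases 0 passed, MKNK2 and RPS6KA1 coming nearest with log2 fold changes of 0.67 and -0.45 (adjusted p = 0.0529 and 0.0569). MAPKAPK3 was the most abundant (21.21 FPKM in control).

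Of 10 other phosphatases of MAP kinases 8 were tested and 1 passed. PPP2R1B, a scaffold subunit of protein phosphatase 2A, rose 1.5-fold, with 44.58 CPM ± 2.02 in control and 66.89 CPM ± 4.15 in SIGLEC15 siRNA libraries (SD, n = 3 each; adjusted p = 0.0127). The catalytic subunit PPP2CA, the most abundant (40.1 FPKM in control), had a log2 fold change of 0.03.

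Of 18 transcription factors known to act on promoters of these phosphatases 2 fell, and the median log2 fold change of the list was 0.063. SRF, which drives immediate early genes, fell 1.35-fold, with 57.3 CPM ± 4.3 in control and 42.38 CPM ± 2.0 in SIGLEC15 siRNA libraries (SD, n = 3 each; adjusted p = 0.0393), and ETS1 fell 1.23-fold, with 161.7 CPM ± 6.64 in control and 131.0 CPM ± 2.43 in SIGLEC15 siRNA libraries (SD, n = 3 each; adjusted p = 0.0388). CREB1 and ATF1, which bind the cyclic AMP response element, had log2 fold changes of 0.31 and -0.17. E2F1 was the most abundant (25.35 FPKM in control).

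Of 8 proteins that bind AU-rich elements 1 fell. KHSRP, which promotes decay of AU-rich mRNAs, fell 2.34-fold, with 263.7 CPM ± 6.94 in control and 112.6 CPM ± 1.95 in SIGLEC15 siRNA libraries (SD, n = 3 each; adjusted p = 0.000636). HNRNPD, the most abundant (49.64 FPKM in control), had a log2 fold change of -0.05, and ZFP36 one of 0.53 (adjusted p = 0.229).

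Of 14 ERK output genes outside the family 1 fell and 1 rose, with a median log2 fold change of -0.0675. EGR1, an immediate early transcription factor, fell 2.44-fold, with 29.95 CPM ± 2.01 in control and 12.29 CPM ± 0.31 in SIGLEC15 siRNA libraries (SD, n = 3 each; adjusted p = 0.0018). CCND1, which encodes cyclin D1, rose 1.25-fold, with 672.7 CPM ± 17.9 in control and 840.7 CPM ± 31.6 in SIGLEC15 siRNA libraries (SD, n = 3 each; adjusted p = 0.0272). The nearest to the threshold was ETV5, an ETS factor often read together with DUSP6, with a log2 fold change of -0.31 (adjusted p = 0.0532) and groups that did not overlap. MYC (-0.60, adjusted p = 0.139), SPRED2 (-0.11) and ETV4 (0.19) also had groups that did not overlap and did not pass. The groups of SPRY2, SPRY4, EPHA2, EPHA4, FOSL1, SPRED1 and PHLDA1 overlapped, with log2 fold changes of -0.03, 0.10, -0.01, -0.15, -0.15, 0.14 and -0.55. IER3 was the most abundant (163.1 FPKM in control, log2 fold change 0.16).

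**Figure D4:**
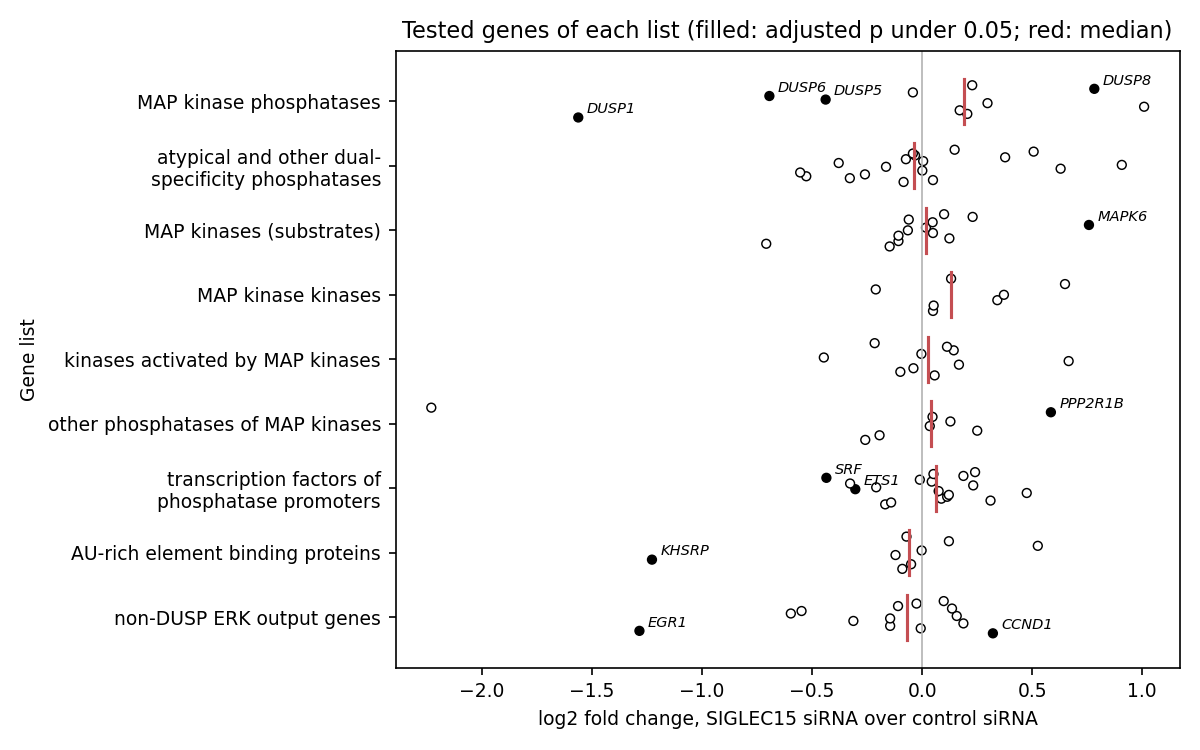
Log2 fold change, SIGLEC15 siRNA over control siRNA, of every tested gene in the 10 phosphatases and in 8 lists of related genes; each point is a gene, filled and named where the edgeR adjusted p is under 0.05, and red lines are list medians. The medians of the 8 lists lie between -0.0675 and 0.132, and DUSP1, EGR1 and KHSRP lie lowest among the named genes.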

How the data were processed

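Poly(A) RNA-seq of 6 libraries was analysed. The authors deposited 1 table that holds, per the file headers, a whole-number count and an FPKM value for each gene and library; a gene with a count of 0 holds an FPKM of 0.0001. HISAT, StringTie and edgeR are listed, without versions, per the submitters' processing notes. The build, whether strand was used and how reads were counted: each not given in the sources used here. Gene coordinates are the table's own.

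All lists, and the 10 members, were chosen with earlier results of these data known. Counts were fitted over all genes with edgeR 4.0.16 (R 4.3.3): filterByExpr (minimum count 10, minimum total 15), TMM, quasi-likelihood F test without covariates, Benjamini-Hochberg adjustment, threshold 0.05. The SE is the log2 fold change over the square root of F. CPM use TMM-scaled library sizes. All members are named; from each list, genes that passed (up to 4) and the one with the highest control FPKM, and others where stated values bear on a member, after their values were seen. Genes most like a member were sought for the 3 with the largest change among those of at least 10 CPM. Promoters are RefSeq's; 3' UTRs are from 1 GENCODE 29 transcript per gene. Alternatives were DESeq2 1.42.0, limma-trend (limma 3.58.1) on log2(FPKM + 1) and log2(FPKM + 0.1), no filter, other size factors, a replicate block and each library left out. The edgeR and limma fits were run on simulated counts drawn from the edgeR model itself. That checks the code and not the calls made in these data. No column was left without a sample (0).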

Additional observations from a re-analysis of the deposited data

How the results depend on the processing

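No member changed sign under any of 12 alternatives (10 for DUSP2 and DUSP8, whose mean FPKM is under 1). DUSP1 was called under all 12 (log2 fold change -1.61 to -1.44), DUSP6 under 11, DUSP5 under 7, DUSP8 under 2 of 10, DUSP4 under 3 and DUSP2 under 1 of 10; DUSP7, DUSP9, DUSP10 and DUSP16 under 0. The alternatives reuse the libraries on which the members were selected, so these calls describe the processing and are no independent test. Against 4 members called, DESeq2 called 6, no filter 3 and median-of-ratios size factors 4. Over all genes tested these called 1754 of 16737, 633 of 29060 and 873 of 18910, against 879 of 18910 in the main fit. Limma-trend on FPKM tested 8 members and called 4, with DUSP4 among them and DUSP8 not tested. Over all genes it called 961 of 12032 on log2(FPKM + 1) and 950 of 12032 on log2(FPKM + 0.1). Nothing is read from the member counts beside these totals. Without 1 library in turn 2 to 3 were called. Against 879 genes changed, DESeq2 gave 1754 (874 of the 879 among them), and leaving out 1 library 260 to 431, with 1 library fewer in the fit; the cause of the DESeq2 difference was not tested. A replicate block left 50 genes changed and 1 member, DUSP1, was called. The labels do not pair the libraries, and libraries of the same number showed no shared deviation (r = -0.0712, 0.00662 and -0.117; 1 of 6 correlated best with its own number). The share of each member depends on length scaling: on CPM DUSP1 took 7.69% and 3.46% (13.1% and 6.29% on FPKM), DUSP4 6.89% and 11.2% (3.26% and 5.66%) and DUSP6 43.4% and 35.6% (38.7% and 33.8%). Few counts limit DUSP2 and DUSP8.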

Other observations

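Some genes of the lists outside the family varied widely within a group. DUSP3, an atypical phosphatase that acts on ERK and JNK, was read at 722, 3750 and 923 counts with the control siRNA and at 1096, 4640 and 4953 counts with the SIGLEC15 siRNA (replicates 1, 2 and 3 of each). STYX, a catalytically inactive relative that holds ERK in the nucleus, had 2194, 1025 and 2146 counts in control and 3463, 3045 and 1391 counts in SIGLEC15 siRNA libraries. The libraries that were low for DUSP3 were not the ones low for STYX. MAPK14, which encodes p38 alpha, had 1209, 4009 and 3889 counts in control and 961, 4203 and 4712 counts in SIGLEC15 siRNA libraries, low in replicate 1 of each group. The members DUSP1, DUSP4 and DUSP16, of like abundance, had control spreads of 2.63%, 0.375% and 6.79% of the mean, against 96.4%, 35.3% and 53.2% for DUSP3, STYX and MAPK14. RUNX2, an osteoblast transcription factor, had 2.65 to 3.59 CPM in control and 3.6 to 20.1 CPM in SIGLEC15 siRNA libraries. The groups barely stood apart, and the log2 fold change of 2.00 (SE 0.571) did not pass (edgeR adjusted p = 0.113).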
